A study of Mus musculus with 58 samples.

Results

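CD4+ T cells that lack the miR-17~92 microRNA cluster (KO) were compared with wild-type (WT) cells after 48 h of a weak stimulus, across all genes. The comparison used 8 of the 58 RNA-seq libraries of the series, 4 from KO cells and 4 from WT cells, chosen by their labelled genotype, time and stimulus, and KO and WT libraries of the same replicate number were taken as a pair. The KO mice carried CD4cre.miR-17~92lox/lox (T1792 delta/delta), in which Cre recombinase under Cd4 control removes the cluster in T cells. The other mice are labelled wild type with no Cre named, so the loss of the cluster and the presence of Cre cannot be told apart here. Naive CD4+ T cells of both genotypes had been isolated by kit from lymph nodes and spleens pooled from 10 mice of both sexes. They were cultured on plates coated with anti-CD3 at 0.5 µg/ml and anti-CD28 at 0.2 µg/ml, with IL-2 at 50 U/ml. Mouse ages and strain backgrounds are not given in the labels, and nothing states whether each library came from its own pool of mice. The p-values therefore measure the spread between these libraries, which may be partly technical.

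MicroRNAs are short RNAs that guide Argonaute proteins to matching sites, mostly in the 3' untranslated regions (UTRs) of messenger RNAs, and lower the stability and translation of those messengers. Most of the pairing is made by the seed, bases 2 to 8 of the microRNA. The miR-17~92 cluster is transcribed as a single primary RNA that is cut into 6 microRNAs, and it is known in T cells for promoting clonal expansion, survival and helper differentiation, in part by lowering brakes on signalling from the antigen receptor and CD28. Its microRNAs are repressors, and messengers with seed matches are its candidate direct targets.

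The mature sequences are shown because the changes described below are ordered by matches to their seeds, written here in capitals. They are from RefSeq (GRCm38.p6), 5' to 3', and lie between positions 115043684 and 115044496 of the plus strand of chromosome 14.
miR-17-5p: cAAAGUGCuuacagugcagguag
miR-20a-5p: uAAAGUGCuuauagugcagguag
miR-18a-5p: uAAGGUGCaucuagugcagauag
miR-19a-3p: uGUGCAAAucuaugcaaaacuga
miR-19b-3p: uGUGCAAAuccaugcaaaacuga
miR-92a-3p: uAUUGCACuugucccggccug
The 6 microRNAs fall into 4 seed families, since miR-17-5p and miR-20a-5p share a seed and miR-19a-3p and miR-19b-3p share another. The sites that pair with these seeds read GCACTTT (miR-17 family), GCACCTT (miR-18), TTTGCAC (miR-19) and GTGCAAT (miR-92).

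The labels fitted the transcripts of the alleles. Mir17 had 0 counts in the 4 KO libraries together, against 15 in the 4 WT libraries, and Mir19a had 0 against 22, where a count of 0 still allows up to 3 counts over a group. Mir20a had 0 counts in KO and 21 in WT libraries, and Mir18 had 1 and 16. These 4 hairpin genes failed the filter on low counts in the fit of the 8 libraries. In a fit of all 58 libraries without the replicate block they passed it, through counts in libraries outside this comparison. They were called lower in KO cells there (edgeR, adjusted p = 0.0339 for Mir17, 0.0394 for Mir18, 0.00225 for Mir19a and 0.00361 for Mir20a). These calls lean on the rest of the series and add no separate support for the labels. Gh, the growth hormone gene, of which some Cre constructs carry a piece, had 468 counts over the KO libraries and 2 over the WT libraries. The row of the host gene, Mir17hg (chromosome 14, 115044390 to 115046728, mm10), lies mostly beyond the hairpins and does not check the deletion. Mir17hg had 98.1, 81.0, 122 and 117 CPM (counts scaled to library size) in KO replicates 1 to 4, against 32.7, 20.5, 60.3 and 37.3 CPM in WT replicates 1 to 4. All 4 KO libraries lay above all WT libraries, a rise of 1.55 ± 0.139 on the log2 scale (standard error; edgeR, adjusted p = 0.00208).

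Libraries held between 19367334 and 19780295 counts each, and intron counts made up 14.5% to 16.7% of the full and intron counts together. Summed markers of CD4+ T cells (9 genes) reached 3310 to 4230 CPM in KO and 3280 to 3610 CPM in WT libraries. Summed B cell markers (10 genes) stood at 15.8 to 46.4 CPM in KO and 16.7 to 50.1 CPM in WT libraries, CD8 T cell markers (2 genes) at 13.0 to 26.4 and 13.1 to 23.4 CPM, and myeloid markers (15 genes, with C1qa, C1qc and Clec9a at 0) at 8.32 to 16 and 9.51 to 14.8 CPM. NK cell markers (9 genes) summed to 1.62 to 4.70 CPM in KO and 2.42 to 4.08 CPM in WT libraries, gamma-delta and innate-like T cell markers (4 genes) to 4.07 to 5.69 and 3.84 to 5.96 CPM, and erythroid markers (5 genes) to 0.511 to 1.52 and 0.701 to 1.75 CPM. Of the tested marker genes of other cells, 1 was called (Cebpb, lower). The first principal component held 44.8% of the variance and separated replicates 1 and 2 of both genotypes from replicates 3 and 4, and the second held 25.4% and placed each KO library above the WT library of its number. The mix of sexes differed between libraries, most within pair 3. The Y-linked gene Ddx3y had 71.2, 55.5, 78.7 and 58.7 CPM in KO replicates 1 to 4. In WT replicates 1 to 4 it had 58.2, 37.8, 7.96 and 41.1 CPM. Xist, an X-linked transcript of female cells, had 98.9 CPM in KO replicate 3 and 1050 CPM in WT replicate 3. These were its lowest and highest values. Without replicate 3, 765 genes were called in place of the 1089 given next.

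Many genes differed between KO and WT cells, most of them by modest amounts. Of 12034 genes tested with the replicate number as a block, 1089 were called at an adjusted p under 0.05, or 9.05% of those tested. Of these, 652 were higher in KO cells (5.42%) and 437 were lower (3.63%), and 205 (1.7%) changed 2-fold or more, 105 (0.873%) upwards and 100 (0.831%) downwards. Among the 652, 638 were higher in KO cells in every pair, and among the 437, 436 were lower in every pair. Of all 12034 tested genes, 2119 were higher and 2067 lower in every pair. The calls were made on these same pairs, so the agreement among called genes follows largely from their selection. The CPM of the 2 groups did not overlap for 1215 genes (10.1% of those tested), and for 367 of the genes called higher and 214 of those called lower. Without the replicate block 74 genes were called, all among the 1089. Without pair 1, 2, 3 or 4 the test called 591, 393, 765 and 664 genes.

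Genes whose messengers carry cluster sites shifted upwards, and the shift grew with the number of sites. A 3' UTR was available for 11423 tested genes (GENCODE vM21, the longest per gene), of which 7623 held none of the 4 seed matches. Of these 7623 genes, 3.58% were called higher in KO cells and 4.49% lower, with a median log2 fold change of -0.0275. With 1 match, 6.82% of 2521 genes were higher and 2.42% lower, and the median was 0.0463. With 2 matches, 11.9% of 835 genes were higher and 2.40% lower, with a median of 0.109. With 3 or more matches, 21.2% of 444 genes were higher and 1.35% lower, with a median of 0.191. The share called higher thus grew at each step and the share called lower shrank. Among the 209 genes with 2 or more of the longer 8-base matches (the 7 bases followed by an A), 24.9% were higher, 1.44% were lower and the median was 0.226. Looked at from the called genes, 57.2% of those higher in KO cells held at least 1 match, against 20.3% of those lower and 33.3% of all tested genes with a UTR.

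The order was seen in every pair. For genes with 3 or more matches the median log2 ratio of KO over WT was 0.129, 0.269, 0.151 and 0.236 in pairs 1 to 4, and for genes without a match it was -0.00703, -0.0545, -0.0185 and -0.0419. Longer UTRs hold more matches by chance, so the genes were also split by UTR length. Among the 3811 genes with the shortest UTRs, 9.51% of genes with a match were higher and 3.06% of genes without. Among the 3806 of middle length these shares were 9.40% and 3.91%, and among the 3806 with the longest they were 9.72% and 4.2%. The share called higher therefore differed by the presence of a match more than by UTR length.

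The 4 seed families did not stand level. For genes with sites of a single family, the median was 0.0741 for miR-17 (923 genes, 8.78% higher, 2.06% lower) and 0.0746 for miR-92 (453 genes, 7.51% and 1.99%). It was 0.0482 for miR-19 (823 genes, 6.68% and 1.82%). Genes with miR-18 sites alone had a median of 0.00162, and 4.98% of 582 were higher and 3.78% lower, which is close to the shares over all genes with a UTR (5.59% and 3.76%). These differences between families are a description and were not tested.

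Intronic reads come mostly from RNA that has not been spliced, so they follow transcription more closely than messenger stability. Among the 399 genes with 3 or more matches that passed the filters in both tables, the median log2 fold change was 0.181 for the full counts and 0.0267 for intron counts. For the 6307 genes without a match both medians were near 0, at -0.0238 and -0.00707. The upward shift of genes with sites was thus present in the full counts and hardly in the introns of the same genes. Their median difference, full minus intron, was 0.138 with 3 or more matches, 0.0851 with 2, 0.0427 with 1 and -0.0103 with none.

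**Figure D1:**
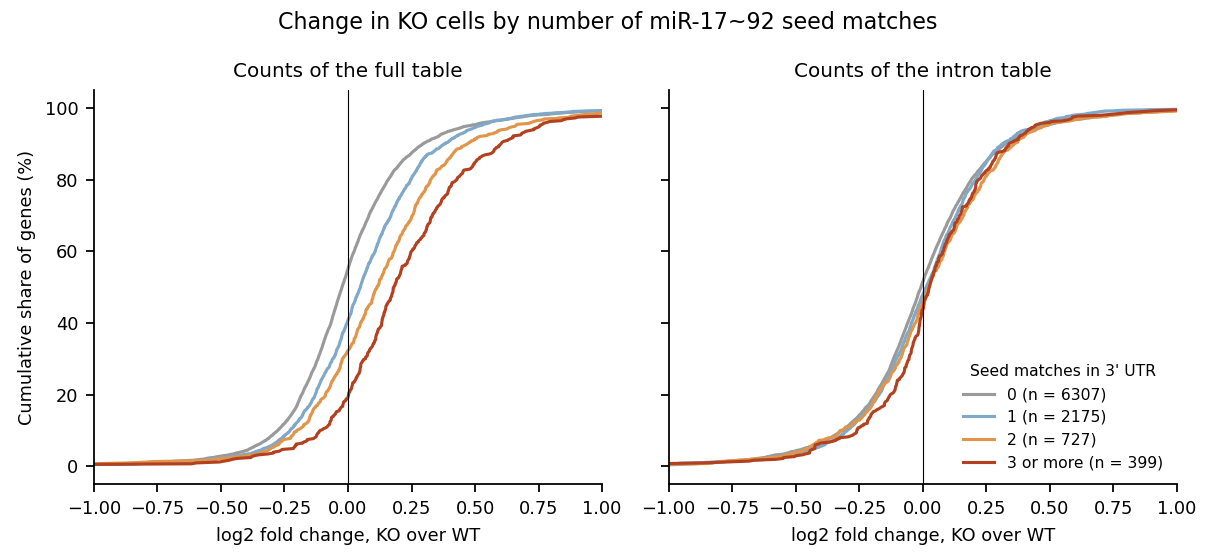
Cumulative share of genes (%) against the log2 fold change of KO over WT for full counts (left) and intron counts (right), for genes with 0, 1, 2 or 3 or more seed matches in the 3' UTR that passed both filters. The lines step to the right with the number of matches in the full counts, with medians of -0.0238 for 0 and 0.181 for 3 or more matches, and lie close together in the intron counts; the axis is cut at -1 and 1.

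The published targets of the cluster that were called were all higher. Of 31 tested genes on a list of targets described in lymphocytes or other cells, 15 were higher in KO cells and 0 were lower, against 5.42% and 3.63% of all tested genes, and the list's median log2 fold change was 0.384, against 0.00384 over all genes tested. The list median was 0.269, 0.332, 0.282 and 0.308 in pairs 1 to 4. For 12 of the 15 called targets every KO library lay above every WT library, as for 367 of all 652 genes called higher. A seed match was present in 14 of the 15 called genes and in 15 of the 16 that were not called, so the presence of a match did not separate them. The 15 became 12, 10, 13 and 9 without pairs 1, 2, 3 and 4, and 2 without the replicate block. The list gathers genes studied because of this cluster, partly in these cells, and is not independent evidence of direction.

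Zbtb4, which encodes a methyl-DNA-binding repressor that restrains the cell cycle, rose most among them. It had 19.1, 22.6, 24.7 and 27.6 CPM in KO replicates 1 to 4, against 7.78, 13.8, 7.81 and 11.7 CPM in WT replicates 1 to 4. The groups did not overlap, and the log2 fold change was 1.22 ± 0.149 (edgeR, adjusted p = 0.00388), while its intronic counts differed by -0.02 on the log2 scale. The difference, full minus intron, was 1.17 ± 0.335 and was not called (edgeR, adjusted p = 0.168). Bcl2l11, which encodes the pro-apoptotic protein BIM, had 104, 128, 135 and 122 CPM in KO replicates, against 66.2, 62.4, 93.7 and 74.3 CPM in WT replicates, again without overlap (log2 0.73 ± 0.0944, edgeR, adjusted p = 0.00412). Tgfbr2, the type II receptor for TGF-beta, had 110, 109, 84.8 and 93.1 CPM in KO replicates, against 71.4, 72.4, 53.9 and 65.1 CPM in WT replicates (log2 0.59 ± 0.0728, edgeR, adjusted p = 0.00388). Its groups were apart as well, and each KO library stood above the WT library of its number by a similar amount.

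Sites of the 8-base kind in these UTRs are shown with the match in capitals, as the messenger strand reads 5' to 3' (GRCm38), because they are the sequences to which the seeds above pair.
Zbtb4, miR-17 family, chr11:69781257-69781286, plus strand: aaatcttgtttctgGCACTTTAgaaaaact
Zbtb4, miR-18, chr11:69780514-69780543, plus strand: ttgcctccaaaataGCACCTTAtaccccat
Bcl2l11, miR-17 family, chr2:128160438-128160467, plus strand: tctccccgactggaGCACTTTActgtctca
Bcl2l11, miR-92, chr2:128162435-128162464, plus strand: ttgccactgtacctGTGCAATActgctgta
Tgfbr2, miR-17 family, chr9:116090065-116090094, minus strand: agccaataacgtttGCACTTTAttaatgcc
Txnip, miR-17 family, chr3:96561227-96561256, plus strand: aggtgatgttcttaGCACTTTAgcttgtca
Phlpp2, miR-92, chr8:109943856-109943885, plus strand: tgtggagtatacacGTGCAATAatcagtga
A match of this kind is a description of letters; binding was not measured.

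Several of the called targets are brakes on growth signals. Hbp1, a repressor of cell cycle genes, had 36.9, 38.8, 31.1 and 36.4 CPM in KO replicates and 21.3, 19.8, 15.8 and 19.8 CPM in WT replicates (log2 0.90 ± 0.0876, edgeR, adjusted p = 0.00215). Hbp1 is the called target whose annotated UTR held none of the 4 matches. Phlpp2, a phosphatase that removes an activating phosphate from AKT, had 49.2, 47.1, 39.8 and 42.3 CPM in KO replicates and 38.0, 29.6, 25.2 and 31.5 CPM in WT replicates (log2 0.53 ± 0.0899, edgeR, adjusted p = 0.0102). Rcan3, a regulator of calcineurin, rose by 0.53 ± 0.105 on the log2 scale with overlapping groups (edgeR, adjusted p = 0.0193). Txnip, which limits glucose uptake, rose by 0.41 ± 0.0725 (edgeR, adjusted p = 0.0119), and Cyld, a deubiquitinase that restrains NF-kB, by 0.32 ± 0.0777 (edgeR, adjusted p = 0.0359). Hif1a (log2 0.63), Rora (0.77), Map3k5 (0.50), E2f1 (0.44), Fnip1 (0.42), Jak1 (0.40) and Rbl2 (0.39) completed the 15.

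Some listed targets fell short of the threshold or did not rise. Tnfaip3, which encodes a brake on NF-kB, had 319, 208, 113 and 103 CPM in KO replicates, against 171, 126, 89.9 and 102 CPM in WT replicates, and was not called (log2 0.50 ± 0.134, edgeR, adjusted p = 0.0523). Its groups overlapped, and KO replicates 1 and 2 were the highest libraries. Cdkn1a (-0.14) and Vegfa (-0.38) lay below 0 and were not called. The introns of Socs1 failed the filter, and no intron count of the other 30 genes was called. Intron counts were called for 1.25% of 10357 genes tested (0.772% higher, 0.473% lower). In a list of this size 0 calls is close to that share and does not set the targets apart.

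**Figure D2:**
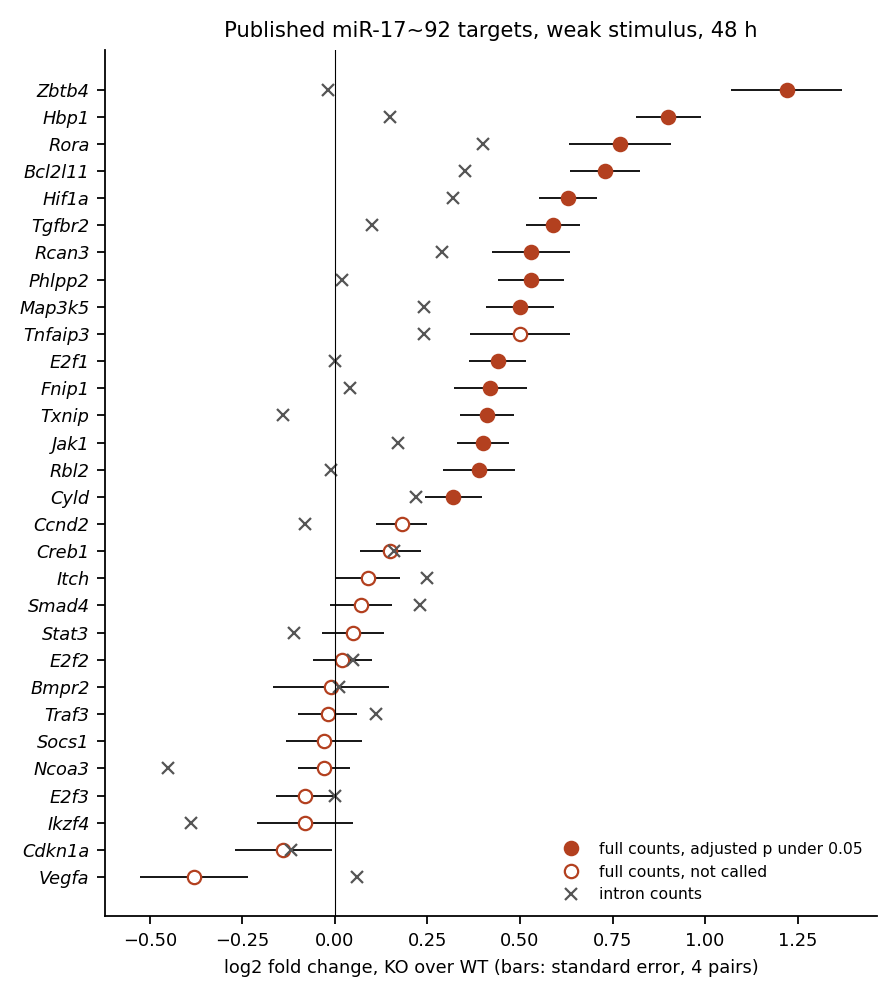
Log2 fold change of KO over WT (horizontal axis) for 30 of the 31 tested targets (rows), from full counts with the standard error over 4 pairs (circles, filled where the adjusted p was under 0.05) and from intron counts (crosses; missing where introns failed the filter). The 15 called genes run from Cyld at 0.32 to Zbtb4 at 1.22, and for Zbtb4, E2f1 and Rbl2 the crosses lie within 0.02 of 0. For Bcl2l11, Rora and Hif1a the crosses lie at 0.35, 0.40 and 0.32, against circles at 0.73, 0.77 and 0.63.

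A gene-by-gene test of the full change minus the intron change called few genes. Of 9884 genes tested, 29 were called (0.293%), 27 with a more positive change in the full counts (0.273%) and 2 with a more negative one (0.0202%). Of the 27, 22 held at least 1 seed match (81.5%), against 34.4% of the 9608 genes with a UTR tested this way, and 18 held an 8-base match (66.7%, against 13.9%). Of the 30 published targets tested this way 0 were called, which is close to the share over all genes. Their median difference was 0.262, against 0.0146 over all genes tested. The genes named next were picked after their values were seen. Tgif1, a corepressor of TGF-beta signalling, had 107, 81.4, 67.9 and 61.8 CPM in KO replicates, against 47.9, 30.9, 41.3 and 35.7 CPM in WT replicates. Its full counts rose by 1.02 and its intron counts differed by 0.22, a difference of 0.79 ± 0.112 (edgeR, adjusted p = 0.00233), and its UTR held 2 matches. Cd69, an early activation receptor that retains cells in lymph nodes, held 4 matches and differed by 0.92 ± 0.105 (edgeR, adjusted p = 0.00035), although its full counts alone were not called. Znfx1, Jazf1, Clock and Atxn1 were among the others, with 2, 3, 6 and 10 matches.

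The smallest adjusted p in that test was that of Cd4, whose control elements drive Cre in the KO mice. Cd4 fell by 1.41 ± 0.113 in the full-minus-intron change (edgeR, adjusted p = 2.83e-06), with intron counts higher in KO cells by 1.52 and full counts that differed by 0.11. The part of the transgene in this value was not tested. Without replicate 1 the test called 234 genes, and without replicate 2, 3 or 4 it called 5, 8 and 24, so the count depends on the libraries that enter.

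The largest falls included genes of retinoid handling, cell contacts and effector function. Tgm2, a transglutaminase induced by retinoic acid, had 28.5, 133, 7.26 and 17.5 CPM in KO replicates, against 121, 582, 53.4 and 189 CPM in WT replicates. Its groups overlapped, since replicate 2 was high in both genotypes, yet each KO library was lower than its partner (log2 -2.60 ± 0.211, edgeR, adjusted p = 0.00188). Ajuba, a LIM-domain protein of cell contacts, had 2.40, 3.45, 1.96 and 2.76 CPM in KO replicates and 8.40, 21.5, 17.9 and 13.4 CPM in WT replicates (log2 -2.49 ± 0.212, edgeR, adjusted p = 0.00197). Crabp2, a carrier of retinoic acid, had 25.1, 28.4, 10.2 and 7.76 CPM in KO replicates and 56.9, 129, 56.7 and 57.5 CPM in WT replicates (log2 -2.16 ± 0.231, edgeR, adjusted p = 0.00231). Ajuba and Crabp2 showed no overlap between genotypes. Of 9 tested retinoid genes, 3 were lower and 0 higher, against 3.63% and 5.42% of all tested genes, and 0 were called without the replicate block. The third was Stra6, a receptor for retinol uptake (log2 -1.67 ± 0.170, edgeR, adjusted p = 0.00224). Kremen2 (-2.63), Pros1 (-1.63), Wnt10b (-1.52), P2ry1 (-1.49) and Tspan4 (-1.44) were further large falls.

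Interferon-inducible genes were prominent among the largest rises, with Ifit3b (3.52), Ifi44l (3.45), Ifit3 (3.35) and Rtp4 (2.18) as examples, and are described below.

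**Figure D3:**
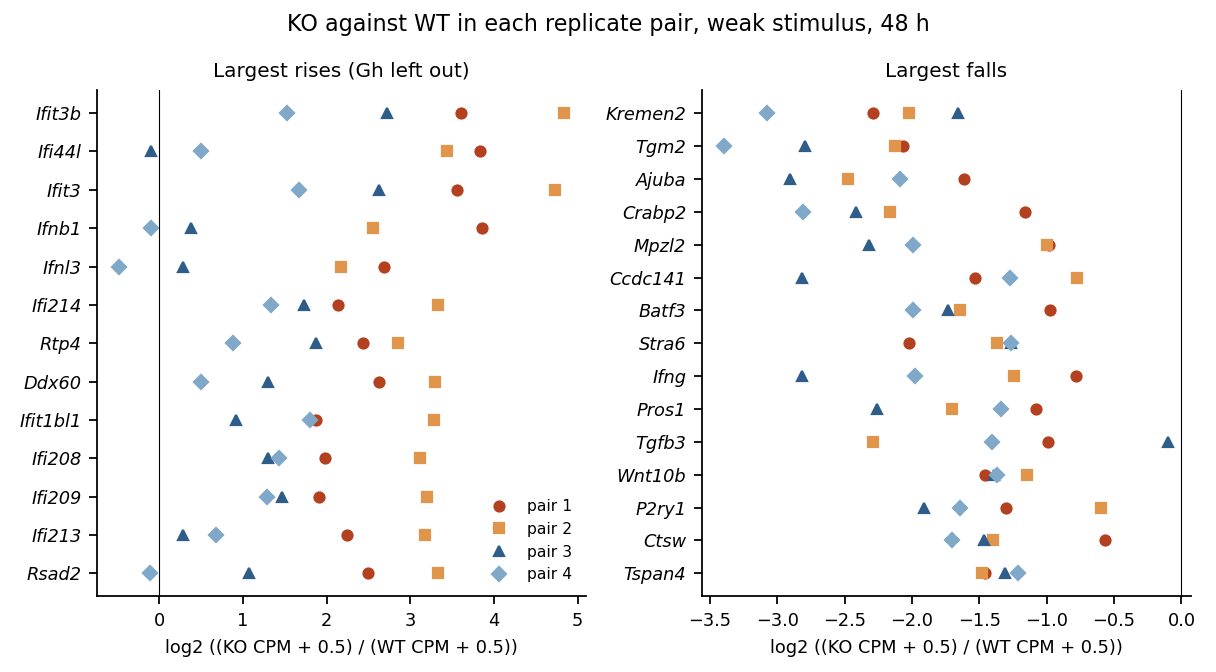
Log2 ratio of KO over WT CPM (0.5 added to each) in pairs 1 to 4 for 13 of the largest rises (left) and the 15 largest falls (right) among called genes of at least 5 CPM in a group. All falls lie left of 0 in every pair; among the rises, Ifnb1, Ifnl3, Ifi44l and Rsad2 lie near or left of 0 in pair 3 or 4 and far to the right in pairs 1 and 2.

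Some genes of helper cells, cytokines and receptors among them, were lower in KO cells. Of 15 tested Th2 genes 5 were lower and 0 higher (median log2 -0.536), and of 18 Th1 genes 4 were lower and 2 higher (median -0.32), against 3.63% lower and 5.42% higher of all tested genes. The 5 lower Th2 genes were the cytokine genes Il4 and Il13 and the receptor genes Il4ra, Ccr4 and Ccr8, and the other 10 were not called. Ifng, the interferon of Th1 cells, had 20.2, 23.1, 2.94 and 6.54 CPM in KO replicates, against 35.1, 55.4, 23.7 and 27.3 CPM in WT replicates. All KO libraries were below all WT libraries (log2 -1.67 ± 0.288, edgeR, adjusted p = 0.0107). Il13, a Th2 cytokine, was near 1 CPM or under it in KO libraries, at 0.748, 0.824, 0.294 and 0.153 CPM, against 1.80, 3.53, 1.60 and 1.22 CPM in WT libraries (log2 -2.05 ± 0.330, edgeR, adjusted p = 0.00866). Il4ra, a receptor subunit for IL-4 and IL-13, fell by 0.68 ± 0.0882 (edgeR, adjusted p = 0.00428). Il18r1, which encodes a receptor for IL-18 on Th1 cells, went the other way and rose by 1.24 ± 0.173 (edgeR, adjusted p = 0.00543). Among 13 cytotoxic granule genes 3 were lower and 0 higher: Crtam, Ctsw and Gzmb, the last with 550, 870, 103 and 133 CPM in KO replicates, against 644, 1520, 275 and 405 CPM in WT replicates. The Th1 and cytotoxic medians rested on pairs 3 and 4, at 0.0435 and 0.0376 within replicates 1 and 2 and at -0.571 and -1.16 within replicates 3 and 4. The 4 lower Th1 genes became 2 without replicate 2 or 3, and the 5 lower Th2 genes 8 without replicate 1. Without the replicate block 1 Th2 gene was lower, and 0 Th1 and 0 cytotoxic genes were. The Th2 median was -0.364 within replicates 1 and 2 and -0.648 within replicates 3 and 4, but it was 0.0793 in pair 1 alone. Within replicates 1 and 2, 2 of 16 Th2 genes were called higher and 6 lower. That fit called 986 genes higher and 505 lower of 12171.

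Most genes of early activation and of resting cells were not called, and those called were mainly lower in the first list and higher in the second. Of 25 early activation genes 5 were lower (Irf8, Batf3, Batf, Il2ra and the amino acid transporter gene Slc7a5) and 1 was higher (Nr4a2, a transcription factor), against 3.63% and 5.42% of all tested genes. The list's median was 0.025 and 0.042 in pairs 1 and 2 and -0.203 and -0.37 in pairs 3 and 4, so its sign differed between them. Within replicates 1 and 2 alone 5 were higher and 4 lower, and within replicates 3 and 4 alone 1 was higher and 13 were lower. Over all genes these 2 fits, with 1 residual degree of freedom each, called 986 higher and 505 lower of 12171, and 882 and 817 of 12017. Irf8 had 417, 428, 279 and 315 CPM in KO replicates, against 731, 753, 675 and 666 CPM in WT replicates, with no overlap (log2 -0.99 ± 0.0934, edgeR, adjusted p = 0.00215). Batf, which with IRF4 drives effector programmes, fell by 0.53 ± 0.105 (edgeR, adjusted p = 0.0180), Batf3 by 1.71 ± 0.212 (edgeR, adjusted p = 0.00388), and Il2ra, the IL-2 receptor alpha chain, by 0.32 ± 0.0720 (edgeR, adjusted p = 0.0296). Of 25 genes of quiescence and homing 6 were higher and 1 was lower. Klf2, a factor that keeps T cells quiescent, had 9.19, 11.0, 21.8 and 15.2 CPM in KO replicates, against 4.84, 5.29, 8.36 and 5.71 CPM in WT replicates (log2 1.20 ± 0.135, edgeR, adjusted p = 0.00284). S1pr1, the receptor for exit from lymph nodes and a known target gene of KLF2, had 18.5, 21.9, 16.2 and 16.9 CPM in KO replicates, against 11.2, 9.34, 6.26 and 6.42 CPM in WT replicates (log2 1.18 ± 0.138, edgeR, adjusted p = 0.00359). Both genes were higher in all KO libraries than in any WT library. The 5 lower activation genes became 2 without replicate 2 and 3 without replicate 3 or 4, and the 6 higher genes of resting cells became 4 to 6 with any pair left out. Without the replicate block 1 of the activation genes was lower and 2 of the resting genes were higher. Ets1, counted among the genes of resting cells, was the exception and fell by 0.50 ± 0.0713 (edgeR, adjusted p = 0.00613).

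Receptors and their signalling chains had called genes in both directions. The counts that follow stand against 5.42% higher and 3.63% lower of all tested genes, and a single gene of 12 or 13, or 2 of 25, is close to those shares. Of 15 genes of signalling through the common gamma chain 2 were higher and 4 lower: Il2rg, the shared chain itself, rose by 0.40 ± 0.0654 (edgeR, adjusted p = 0.00887), while Il2rb fell by 0.37 ± 0.0679 (edgeR, adjusted p = 0.0137). Of 19 coreceptor genes 5 were higher and 1 lower. The inhibitory receptors Btla (log2 0.56 ± 0.0988, edgeR, adjusted p = 0.0117) and Pdcd1 (0.36 ± 0.0751, edgeR, adjusted p = 0.0232) rose, and Cd160 fell by 0.83 ± 0.141 (edgeR, adjusted p = 0.0101). Of 22 calcineurin and NFAT genes 3 were higher and 1 lower, and the lower gene was Ppp3cc, a catalytic subunit of calcineurin. Ppp3cc had 35.2, 44.5, 29.8 and 38.1 CPM in KO replicates, against 54.8, 76.2, 60.9 and 69.7 CPM in WT replicates, with no overlap (log2 -0.83 ± 0.0885, edgeR, adjusted p = 0.00231). In TGF-beta signalling, 2 of 19 genes were higher (Tgif1 and Tgfbr2) and 3 were lower, among them Smad3, a transducer of the signal (log2 -0.67 ± 0.0930, edgeR, adjusted p = 0.00547), and the coreceptor Tgfbr3 (-0.95 ± 0.109, edgeR, adjusted p = 0.00307). Of 20 AP-1, BATF and IRF factors 2 were higher and 3 lower, of 25 NF-kB genes 2 and 2, of 14 SOCS genes 0 and 2, of 18 DUSP and Sprouty genes 3 and 0, of 13 T follicular helper genes 4 and 1, of 9 Th17 genes 2 and 2, and of 16 regulatory T cell genes 2 and 2. Of 23 PI3K, AKT and mTOR brakes 3 were higher and 1 lower, of 19 genes of adhesion and the cytoskeleton 2 and 2, and 1 gene each was higher of 12 in the MYC network, 13 in microRNA processing and 13 heat shock genes. In the BCL2 family Bcl2l11 was the single called gene of 17. These small counts moved with the libraries used. The 5 higher coreceptor genes became 1 without replicate 2 or 4, the 4 lower gamma chain genes 1 without replicate 2 or 4, the 3 higher calcineurin genes 1 without replicate 1 or 4, the 4 higher T follicular helper genes 1 without replicate 2, and the 3 higher DUSP and Sprouty genes 1 without replicate 3 or 4. In the other lists of this paragraph the counts moved by 2 genes at most with a pair left out. Without the replicate block each list of this paragraph had at most 1 called gene.

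Some glycolysis genes were lower, most of them by small amounts. Of 22 tested, 7 were lower and 0 higher, against 3.63% and 5.42% of all tested genes, with a median log2 fold change of -0.21, and 15 were not called. Slc2a3, the glucose transporter GLUT3, fell most of the 7, with 153, 498, 154 and 275 CPM in KO replicates, against 322, 996, 259 and 689 CPM in WT replicates. Replicate 2 was the highest of both genotypes, so the groups overlapped although each KO library was below its partner (log2 -1.04 ± 0.0961, edgeR, adjusted p = 0.00215). Ldha, lactate dehydrogenase A, had 3170, 3440, 3080 and 3140 CPM in KO replicates, against 3670, 4360, 3590 and 3880 CPM in WT replicates (log2 -0.27 ± 0.0652, edgeR, adjusted p = 0.0370). Eno1 fell by 0.37 ± 0.0706 (edgeR, adjusted p = 0.0165), but it shares reads with a near-identical copy, Eno1b, and the split between them is uncertain. The count of 7 became 1 without replicate 2 and 2 without replicate 4, with list medians of -0.193 and -0.187, and 0 without the replicate block. In other growth lists few genes were called: 3 of 32 replication and cell cycle genes (median -0.0395) and 3 of 30 ribosome biogenesis genes (median -0.175) were lower and 0 higher in each. Of the 30 ribosome biogenesis genes 16 were lower in all 4 pairs, against 2067 of all 12034 tested genes. With any pair left out, 0 or 1 of the cell cycle genes and 0 to 2 of the ribosome genes were called. Of 11 CDK inhibitor and RB family genes 3 were higher (Hbp1, Btg2 and Rbl2; 1 without replicate 2 or without the block). None of the 23 cholesterol synthesis genes or the 8 GIMAP genes was called, and 1 of 22 ATF4 and amino acid genes was (Phgdh, lower), although that list's median, -0.269, lay further below 0 than the glycolysis median and 9 of its genes were lower in all 4 pairs.

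Many interferon-stimulated genes were higher in KO cells, by amounts that differed widely between pairs. Type I interferons signal through a receptor to a transcription factor complex that includes IRF9 and binds a response element in the promoters of antiviral genes. Of 28 tested genes of the interferon response 15 were higher in KO cells and 0 lower, with a median log2 fold change of 1.01, against 5.42% and 3.63% of all tested genes, and of 11 PYHIN genes, a family of DNA sensors and regulators induced by interferon, 7 were higher and 0 lower (median 1.28). The medians of the response list were 1.51, 1.71, 0.501 and -0.115 in pairs 1 to 4. Of the 15 called genes, 10 were higher in KO cells in every pair and 14 had overlapping groups. Of all 652 genes called higher, these counts were 638 and 285.

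Ifit3, an antiviral protein, had 378, 143, 18.4 and 19.1 CPM in KO replicates, against 31.7, 4.93, 2.55 and 5.66 CPM in WT replicates (log2 3.35 ± 0.402, edgeR, adjusted p = 0.00385). KO replicates 1 and 2 stood far above the rest, and WT replicate 1 was above KO replicates 3 and 4. Irf9, a subunit of that complex, was the called member whose groups did not overlap, with 226, 175, 122 and 132 CPM in KO replicates, against 115, 92.9, 73.7 and 83.7 CPM in WT replicates (log2 0.81 ± 0.0814, edgeR, adjusted p = 0.00215). The interferon genes themselves followed the same libraries. Ifnb1, interferon beta, had 36.7, 5.77, 0.343 and 0.255 CPM in KO replicates, against 2.06, 0.571, 0.150 and 0.306 CPM in WT replicates (log2 3.31 ± 0.528, edgeR, adjusted p = 0.00858). Ifna4, picked after its values were seen and one of a family whose near-identical copies may share reads, had 32.4, 5.56, 0.196 and 0.255 CPM in KO replicates, against 2.06, 0.675, 0.200 and 0.815 CPM in WT replicates, and was not called (edgeR, adjusted p = 0.0658). In pairs 3 and 4 both genes were under 1 CPM in either genotype.

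The number of interferon calls rests on the libraries used. Of the 28 genes, 4 were higher without replicate 1, 6 without replicate 2, 11 without replicate 3 and 25 without replicate 4, and without the replicate block 0 were called. The 7 PYHIN calls became 5, 5, 7 and 10 without replicates 1 to 4, and 0 without the block. Within replicates 1 and 2 alone 27 of the 28 response genes were higher and 0 lower, and within replicates 3 and 4 alone 10 were higher and 2 lower. Those 2 fits rest on 1 residual degree of freedom each. Over all genes they called 986 higher and 505 lower of 12171, and 882 and 817 of 12017. Siglech, a marker of plasmacytoid dendritic cells, which make much interferon, had 1 count over all KO libraries and 2 over all WT libraries. Which cells made the interferon was not tested.

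For some interferon genes the rise was about as large in introns, and for others it was smaller. The intron counts of Ifit3 rose by 3.30 and those of Rtp4 by 2.42, against 3.35 and 2.18 for full counts. Those of Irf9 rose by 0.34 and those of Ifi209 by 1.56, against 0.81 and 1.99. The median full-minus-intron change was 0.0665 for the response list and 0.237 for the PYHIN genes, against 0.0146 over all genes tested. Promoters of interferon response and PYHIN genes held the core of the response element more often than others did. Both lists gather interferon-inducible genes, so a high share follows largely from how they were chosen. The letters GAAANNGAAA were searched on both strands of RefSeq promoters (GRCm38.p6, 250 bases before to 50 after the start). They were found in 12 of 20 interferon response genes with a promoter in the table (60.0%) and 8 of 10 PYHIN genes (80.0%), against 3.87% of the 9607 tested genes with a promoter and 3.44% of all 32851 promoter windows. Windows of 30 bases around the match, in capitals, are shown for called genes.
Ifit3, chr19:34583397-34583426, minus strand: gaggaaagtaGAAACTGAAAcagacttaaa
Rsad2, chr12:26456553-26456582, plus strand: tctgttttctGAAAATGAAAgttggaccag
Oas1a, chr5:120907520-120907549, minus strand: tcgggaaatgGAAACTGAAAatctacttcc
The list shares above count genes whether called or not. Of 17 guanylate-binding and related GTPase genes 10 had a promoter in the table, and all 10 held the letters. Of the 17, 2 were called higher, and 0 of these 2 had a promoter in the table. Of those called higher, 5 of 10 interferon response genes and 5 of 6 PYHIN genes with a promoter held the letters. Of all genes called higher in KO cells 10.2% of 519 held them, and of those called lower 3.16% of 348. The published cluster targets held them in 2 of 25 promoters.

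**Figure D4:**
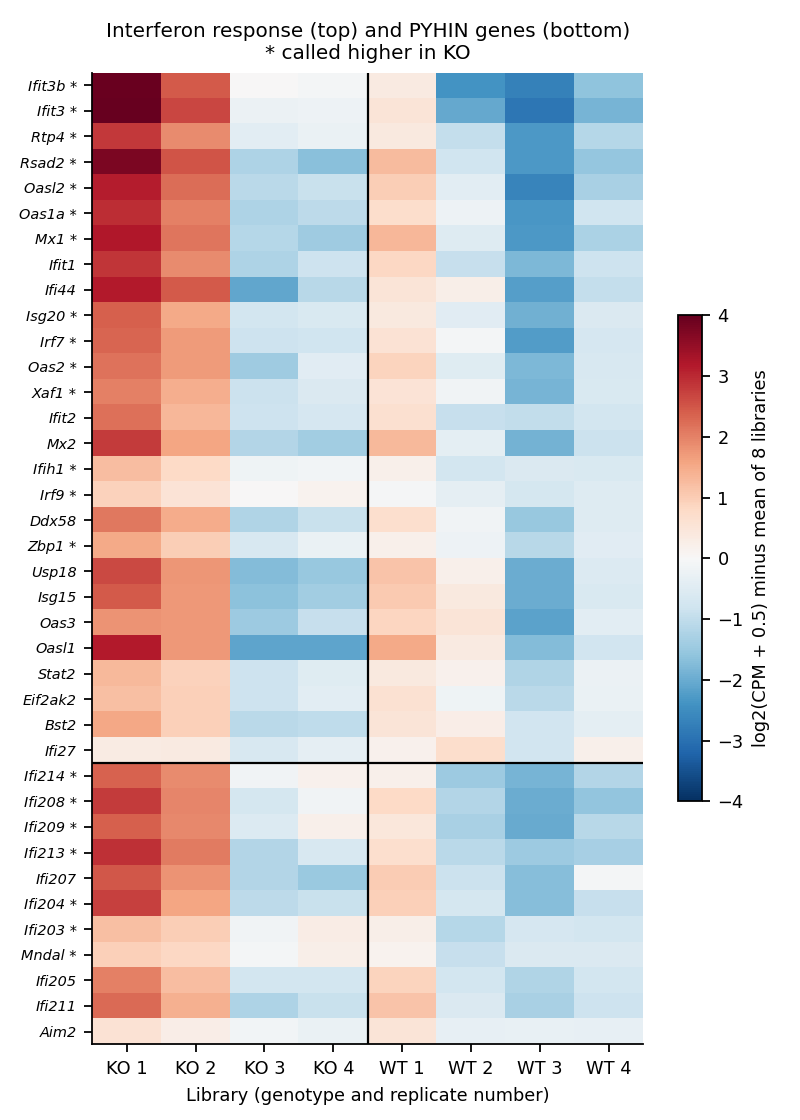
Log2(CPM + 0.5) minus the mean of the 8 libraries (colour) for 27 of the 28 interferon response genes and 11 PYHIN genes (rows; asterisks mark genes called higher) in KO libraries 1 to 4 and WT libraries 1 to 4 (columns). The median over the 28 response genes was 2.37, 1.71, -0.97 and -0.74 in the KO libraries and 0.59, -0.21, -1.88 and -0.63 in the WT libraries; the colour scale ends at -4 and 4.

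The 48 h effect was set against that after 24 h of the same stimulus, where KO and WT cells were compared in the same way and 649 of 11651 genes were called (5.57%; 2.92% higher and 2.65% lower). The difference between the 2 effects was called for 34 of 12282 genes (0.277%), 25 (0.204%) with a more positive and 9 (0.0733%) with a more negative effect at 48 h. The glycolytic enzyme gene Eno3 was the clearest, with 44.1, 46.6, 37.2 and 36.8 CPM in KO replicates at 48 h, against 96.1, 98.3, 86.2 and 82.7 CPM in WT replicates. Its KO effect was -1.14 at 48 h and 0.00 at 24 h, a difference of -1.14 ± 0.113 (edgeR, adjusted p = 0.00166). The glucose and lactate transporter genes Slc2a3 and Slc16a3 were higher at 48 h than at 24 h in all libraries of both genotypes, but their KO effects were more negative at 48 h, with differences of -0.82 ± 0.134 and -0.78 ± 0.131 (edgeR, adjusted p = 0.0352 and 0.0366). The 34 calls became 2, 2, 1 and 36 without replicates 1, 2, 3 and 4. S1pr1 differed by 0.02 at 24 h and by 1.18 at 48 h, a difference of 1.16 ± 0.218 (edgeR, adjusted p = 0.0495).

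The KO effect on some interferon response genes also differed between the times. With pairs matched within each time, the difference was called for 4 of 28 interferon response genes and 0 of 11 PYHIN genes. The KO effect on Ifit3 was -0.66 at 24 h and 3.35 at 48 h, a difference of 4.03 ± 0.569 (edgeR, adjusted p = 0.0352). Oasl2, an antiviral gene, was called in opposite directions, at -2.14 (edgeR, adjusted p = 0.00667) and 1.77 (edgeR, adjusted p = 0.0104). The PYHIN genes Ifi214 (log2 1.01, edgeR, adjusted p = 0.00168) and Ifi209 (0.98, edgeR, adjusted p = 0.000612) were higher in KO cells at 24 h already. The list medians at 24 h and 48 h were -0.448 and 1.01 for the interferon response and -0.944 and 0.387 for 17 guanylate-binding and related GTPase genes. Of these 17 genes, 13 were lower at 24 h, and at 48 h 2 were higher (Gbp8 and Gbp9; 8 without replicate 3) and 0 lower. The difference itself was not called for any of the 17 with pairs matched within each time, and was called for all 17, 20 of the response genes and 8 of the PYHIN genes when KO and WT libraries of the same number were also matched across times, a fit added after the data were seen that called 265 genes in all. The shift by seed matches was smaller at 24 h, where the median of genes with 3 or more matches was 0.0462 (429 genes), against 0.191 at 48 h, and this difference was not tested.

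**Figure D5:**
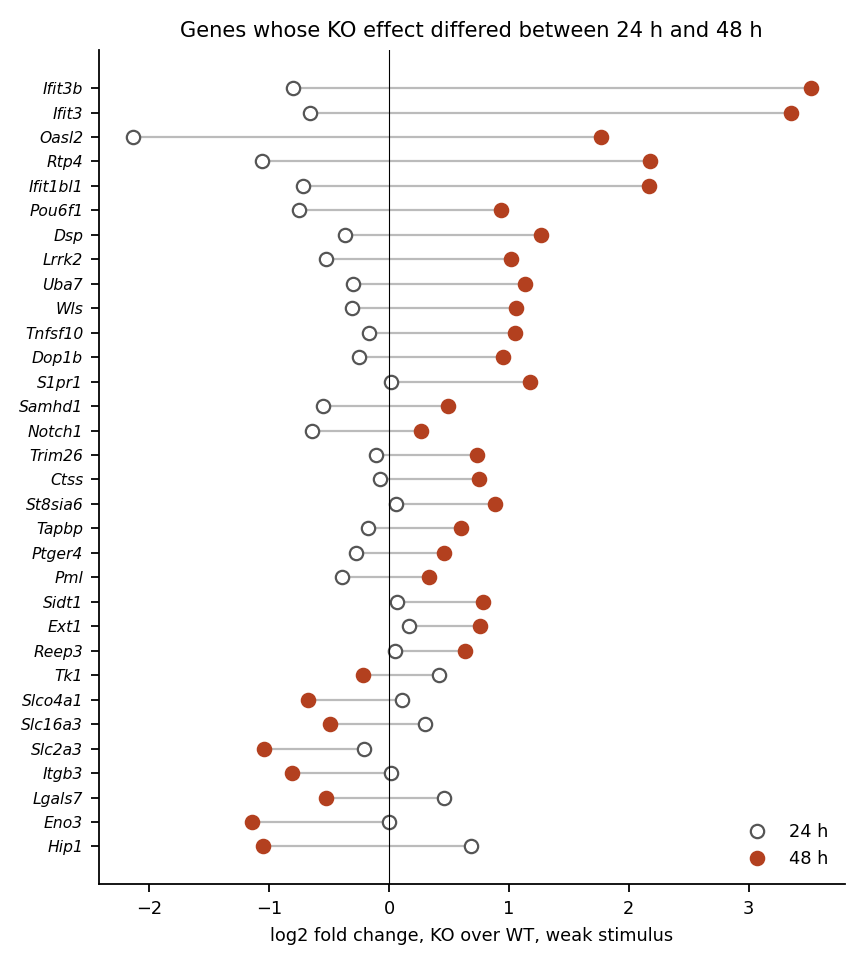
Log2 fold change of KO over WT under the weak stimulus at 24 h (open circles) and 48 h (filled circles) for the genes whose effect differed between the times and that were tested at both. Ifit3b, Ifit3, Oasl2, Rtp4 and Ifit1bl1 lie left of 0 at 24 h and between 1.77 and 3.52 at 48 h, whereas Eno3 and Itgb3 lie at 0.00 and 0.02 at 24 h and at -1.14 and -0.81 at 48 h.

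Under the very weak stimulus (anti-CD3 at 0.25 µg/ml) the effect at 48 h was much the same size. With their own WT libraries, 164 of 11942 genes were called there (1.37%; 0.779% higher and 0.595% lower). All 1084 of the genes called under the weak stimulus that could be tested had the same sign under the very weak one. Zbtb4 rose by 1.22 under the weak and 1.28 under the very weak stimulus, Ajuba fell by 2.49 and 2.36, and genes with 3 or more seed matches had medians of 0.191 and 0.193. A test of the difference called 0 of 12344 genes (edgeR), with 61 at an unadjusted p under 0.05 (0.494%), and 0 again when libraries were also matched across stimuli, with 198 unadjusted. The median standard error of the difference was 0.177 on the log2 scale. A call at the adjusted threshold needs a difference of several standard errors, so larger differences of a single gene could also have been missed. The 0 calls therefore do not show that the effects were equal. The libraries of the 2 stimuli are not an independent repeat. Compared within each genotype, 5 of the 8 weak libraries were closest to the very weak library of their own number. The mean squared difference between same-numbered libraries was 8.30 to 56.1 times that of counting error alone, so they were not duplicates. The largest ratio was that of KO replicate 3, which was closest to very weak replicate 4 (13.6).

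The transgenic cells (TG), which carry extra copies of the cluster, share the 4 WT libraries of this comparison. Gh, of which some Cre constructs carry a piece, was higher in TG than in WT cells too (log2 6.96 ± 0.446, edgeR, adjusted p = 2.83e-05). In KO cells its log2 fold change was 7.53. The part of Cre in the TG values was not tested. Against those WT libraries, genes with 3 or more seed matches had a median log2 fold change of -0.130 in TG cells, and 0.191 in KO cells.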

How the data were processed

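Read counts per gene were deposited by the authors in 2 tables, full and intron, as raw whole numbers. FastQC 0.11.5, STAR 2.5.2a, R 3.5, edgeR 3.24.3 and mm10 are named in the submitters' processing notes. How reads were assigned to genes, and on which strand, is not given in these sources, and overlapping or antisense genes are therefore uncertain. The protocols name poly(A) RNA, a stranded kit and single-end reads. Intron counts were above full counts in 12.1% of values, and full counts were treated as exonic. Of 24028 IDs, RefSeq gave symbols for 23968 and GENCODE for 7, which left 53 unnamed.

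The main test was the quasi-likelihood F test of edgeR 4.0.16 under R 4.3.3, with TMM factors and filterByExpr, with replicate number as a block (3 residual degrees of freedom), at a Benjamini-Hochberg adjusted p under 0.05. Log2 fold changes are edgeR estimates with their standard errors, and CPM use TMM library sizes. The full-minus-intron fit kept a term per library, and differences of effects used pairs within each state (6 degrees of freedom). Numbers were taken as pairs because deviations of same-numbered libraries from their group means correlated, at 0.664, 0.491, 0.573 and 0.397. KO replicate 4 correlated more with WT replicate 3 (0.572) than with WT replicate 4, so the values do not single out that pairing. The code was tested on simulated data. DESeq2, other scalings, no filter, no block, all 58 libraries and each replicate left out were alternatives. UTRs are the longest per gene in GENCODE vM21. Reads carry no molecular identifiers, so limits cover counting error only.

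Members and the 41 gene lists were chosen with earlier results of these data known. Named genes are the cluster's own transcripts, Gh, the 15 largest rises and falls (a group mean of 5 CPM or more; no unnamed models, no antigen receptors), up to 4 called members per list, every target, the 5 called genes of highest level and the 5 of smallest adjusted p per difference. Some named genes are not reported here.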

Additional observations from a re-analysis of the deposited data

Results flagged for a closer look

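Among 286 groups of 4 libraries (143 named genes in 2 genotypes), 20 had a library far from the other 3; chance alone gives about 1 in 20. WT replicate 1 was the high library for Ifit3b (11.9 CPM), Ifi44l (1.03), Ifit3 (31.7), Ifi208 (45.9), Ifi213 (9.53), Rsad2 (56.4), Ccl3 (122) and Il2rg (699). Interferon-inducible genes make up 6 of these 8. KO replicate 1 was high for Ifnb1 (36.7 CPM) and low for Rcan3 (65.2) and Il4ra (244). KO replicate 2 was high for Kremen2 (6.13 CPM), Tgm2 (133) and Ddit4 (132), and KO replicate 4 for Mir18 (0.0511 CPM, 1 count). WT replicate 2 was high for Crabp2 (129 CPM) and Il21 (8.36) and low for Mir17 (0 CPM), and WT replicate 3 was high for Mir19a (0.501) and Bop1 (225).

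The KO effect differed between 48 h and 24 h for 13 named genes, by a test of the difference itself (edgeR; adjusted p from 0.00166 to 0.0495). The difference, 48 h minus 24 h on the log2 scale, was 4.32 for Ifit3b, 4.03 for Ifit3, 3.24 for Rtp4, 2.89 for Ifit1bl1, 1.55 for Lrrk2, 1.16 for S1pr1 and 0.83 for Ctss. It was -2.84 for Kremen2, -1.72 for Hip1, -1.14 for Eno3, -0.82 for both Slc2a3 and Itgb3, and -0.78 for Slc16a3.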

How the results depend on the processing

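The 1089 calls became 74 with no replicate block (56 higher, 18 lower), 691 in a fit of all 58 libraries without the block (418 and 273), 1964 in that fit with it (1033 and 931), 1428 with DESeq2 and 1449 without a filter on low counts. They were 393 to 765 with each replicate left out. Within replicates 1 and 2 alone 1491 genes were called and within replicates 3 and 4 alone 1699, both splits added after the data were seen and resting on 1 residual degree of freedom. No gene among the 1089 changed sign under these alternatives where it was tested. Scaling moved the split of higher to lower calls little (642 to 469 with RLE factors, 600 to 468 with library totals). Of the 125 named genes that were called, 110 lost the call without the replicate block, 6 with DESeq2 and 25 to 49 with a replicate left out.

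The 29 full-minus-intron calls became 5 without the block, 105 without a filter, and 5 to 234 with a replicate left out. The 34 differences between 24 h and 48 h became 1 without the block, 182 without a filter, 1 to 36 with a replicate left out, and 265 with libraries also matched across times. The difference between stimuli stayed at 0 under each alternative run. The cause of these changes was not tested.

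Targets that were not called changed sign with the libraries used: Cdkn1a was 0.09, E2f2 -0.03 and Socs1 0.14 within replicates 1 and 2; Stat3 was -0.09, Bmpr2 0.17, Smad4 -0.05, Ncoa3 0.03, Itch -0.01 and Traf3 0.08 within replicates 3 and 4. Bmpr2 was 0.03 without the block and 0.02 in the fit of all libraries without it. With a replicate left out, Bmpr2 ranged from -0.10 to 0.19, E2f2 from -0.05 to 0.04, Stat3 from -0.03 to 0.10, Socs1 from -0.12 to 0.05 and Traf3 from -0.07 to 0.02. Depth limits the hairpin genes, at 22 counts or fewer per group.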
